A study of Mus musculus with 18 samples.

Results

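The matrix metalloproteinases Mmp2, Mmp3, Mmp9, Mmp10, Mmp12, Mmp13 and Mmp14 and the tissue inhibitors Timp1, Timp2 and Timp3 were followed in colon RNA of mice with and without colitis-associated cancer (CAC). These 10 members of the count table were picked by gene symbol from 47729 genes, 7 of them proteases and 3 of them inhibitors. RNA-Seq was done on colon of 9 mice in 3 groups of 3, each library being sequenced in 2 lanes that were added up. Naive WT mice (mice 1 to 3) carried the control label. WT CAC mice (mice 4 to 6) had been given azoxymethane (AOM), a carcinogen, at 10 mg/kg, followed by dextran sulfate sodium (DSS) at 2.5% in 3 cycles, which injures the epithelium. Cldn2TG CAC mice (mice 7 to 9) had received AOM-DSS as well and carried a Claudin-2 transgene driven by the villin promoter, which is active in the intestinal epithelium, beside their own Cldn2 gene. No transgenic group without AOM-DSS was compared, so the transgene and the treatment change together between the naive WT and the Cldn2TG CAC mice. The treatment text attached to the samples describes AOM-DSS for the controls too, and the naive group therefore rests on the treatment label. Ages and sexes of the single mice were not given in the sources used here.

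Matrix metalloproteinases are zinc endopeptidases that cut collagens, laminins, proteoglycans and other proteins outside the cell, and most are made as inactive proenzymes whose prodomain must be removed. Tissue inhibitors of metalloproteinases bind the active site and so limit this cutting. In the inflamed or tumour-bearing colon these enzymes are known chiefly as products of fibroblasts, macrophages and neutrophils, with some made by the epithelium at wound edges, and mRNA levels do not show how much enzyme is active. In RNA from whole tissue, fewer cells of a type and less RNA per cell cannot be told apart.

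The libraries held 14142711 to 22262546 counts per mouse. Values per mouse are given as CPM, the counts of a gene scaled to a common library size with edgeR's TMM factors over the 9 mice, and 3 counts in 1 library, taken as the counting floor, correspond to about 0.15 CPM in naive WT mouse 1 (0.149 CPM). The colon label held, since none of the 10 colon epithelium markers was at 0 in any mouse and their summed level was between 13540 and 20490 CPM. Cldn2 itself was at 192 to 259 CPM in naive WT, 119 to 137 CPM in WT CAC and 208 to 251 CPM in Cldn2TG CAC mice, 0.78 higher on the log2 scale in Cldn2TG CAC than in WT CAC (SE 0.12, adjusted p = 0.0103). Cldn2 fell by 0.82 in WT CAC against naive WT (SE 0.14, adjusted p = 0.0138), and in Cldn2TG CAC against naive WT its log2 fold change was -0.03 (adjusted p = 0.897, 95% interval -0.30 to 0.24). WT CAC mouse 4 stood apart from the other mice of its group, with a chi-square of 66.3 and 65.3 per degree of freedom against them and 31.9 between them. Naive WT mouse 1 was the only mouse with Xist RNA (214 CPM, at most 0.203 CPM in the others), and the Y-linked genes were at 0.199 CPM or less in it. Sex is therefore not balanced over the groups, which bears on Timp1, an X-linked gene.

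Mmp13, Mmp12, Mmp3 and Mmp10 (4 of the members) lie in this order within 238 kb of chromosome 9 (GRCm38), from Mmp13 at 7272514-7283333 to Mmp10 at 7502352-7510238. The others are scattered, with Mmp2 on chromosome 8, Mmp9 on chromosome 2, Mmp14 on chromosome 14, Timp1 on chromosome X, Timp2 on chromosome 11 and Timp3 on chromosome 10, all annotated as protein coding. The start of transcription of 8 members, all except Mmp2 and Mmp9, is covered by the RefSeq promoter windows (GRCm38.p6, 250 bases before to 50 after the start). The 150 bases before the start are shown, 5′ to 3′ on the gene's strand, for those of these 8 with the largest (Mmp10, Mmp12 and Mmp13) and the smallest fold changes (Mmp14 and Timp2) between WT CAC and naive WT colon, so that windows inside and outside the chromosome 9 cluster can be read side by side. Mmp9, which changed more than Mmp13, lies outside the cluster. Capitals mark the letters TGANTCA (the AP-1 motif), TATAAA (the TATA box) and GGGCGG or its reverse complement (the GC box). The windows are Mmp10 at chr9:7502192-7502341 (+), the downstream start of Mmp12 at chr9:7347224-7347373 (+), Mmp13 at chr9:7272364-7272513 (+), Mmp14 at chr14:54431448-54431597 (+) and Timp2 at chr11:118355412-118355561 (-).
Mmp10: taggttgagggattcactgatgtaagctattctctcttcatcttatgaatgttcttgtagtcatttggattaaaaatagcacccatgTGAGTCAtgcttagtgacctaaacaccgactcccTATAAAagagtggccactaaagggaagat
Mmp12: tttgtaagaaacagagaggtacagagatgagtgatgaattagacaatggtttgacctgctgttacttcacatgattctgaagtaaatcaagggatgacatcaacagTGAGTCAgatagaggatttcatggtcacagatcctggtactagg
Mmp13: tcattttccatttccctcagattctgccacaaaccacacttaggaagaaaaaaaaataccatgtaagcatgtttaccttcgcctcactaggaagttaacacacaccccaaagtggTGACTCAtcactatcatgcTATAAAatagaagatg
Mmp14: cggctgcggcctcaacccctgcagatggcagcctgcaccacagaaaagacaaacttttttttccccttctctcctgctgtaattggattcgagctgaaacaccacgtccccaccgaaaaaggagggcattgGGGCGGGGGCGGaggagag
Timp2: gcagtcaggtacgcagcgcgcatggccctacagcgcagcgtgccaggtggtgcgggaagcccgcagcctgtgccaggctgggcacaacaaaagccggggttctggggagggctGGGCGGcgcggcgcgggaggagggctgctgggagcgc

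An AP-1 motif stood in the 300-base windows of Mmp3, Mmp10, Mmp12 and Mmp13, that is in 4 of the 8 members, against 7.81% of 32851 windows in the table. Its first base was 63 bases before the start in Mmp10, 46 in Mmp3, 44 in Mmp12 and 35 in Mmp13. The TATA box letters were in the windows of the same 4 genes, against 13.6% of all windows, and in Mmp12 they began 5 bases after the start, outside the stretch shown. The upstream start of Mmp12 had neither motif. GC box letters were in the windows of Mmp14, Timp1, Timp2 and Timp3 and of no chromosome 9 member, against 35.7% of all windows. GGAAGT on either strand, a core of ETS factor motifs, was in the windows of Mmp3, Mmp12, Mmp13 and Timp1, against 23.8%. A member was counted if any of its windows matched, and Mmp12 had 2 windows, whereas the shares are of single windows. The matches describe letters in a window and were not tested.

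The effect of AOM-DSS in WT colon was read from the 6 WT mice with edgeR's quasi-likelihood test, and a gene with a Benjamini-Hochberg adjusted p under 0.05 over all genes tested is said to have risen or fallen. In WT CAC colon, 7 of the 10 members rose against naive WT colon, namely Mmp2, Mmp9, Mmp10, Mmp12, Mmp13, Timp1 and Timp3, and none fell. Of 15437 genes tested, 8.04% rose and 6.92% fell. The rises ran from 0.97 on the log2 scale in Timp3 to 6.22 in Mmp10. Those same 7 members did not overlap between the groups, with every WT CAC mouse above every naive WT mouse, which 17.7% of all genes tested also showed. Mmp3, Mmp10, Mmp12 and Timp1 passed the filter on low counts only through the WT CAC mice, in which they were high, so their calls add little to the count. Of the 6 members that pass it without those mice, 4 rose, and their median log2 fold change was 1.35, against 0.02 over all genes tested. With the other 4 included the median was 2.33.

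The transgene was examined between the 2 groups given AOM-DSS. In Cldn2TG CAC colon, 6 of the 10 members fell against WT CAC colon, namely Mmp3, Mmp9, Mmp10, Mmp12, Mmp13 and Timp1, and none rose. Of 14888 genes tested, 7.35% fell and 2.19% rose. No overlap between the groups was seen for 8 members, with every Cldn2TG CAC mouse below every WT CAC mouse, and for 14.3% of all genes tested. Of the 6 members that pass the filter without the WT CAC mice, 2 fell, and all 6 log2 fold changes were below 0 with a median of -1.52, against 0.01 over all genes tested. With Mmp3, Mmp10, Mmp12 and Timp1, which passed only through the WT CAC mice, the median was -2.70. DESeq2's Wald test, by contrast, called all 10 members lower, with 9.97% of all genes tested called lower. Both comparisons use the same 3 WT CAC mice, so the rise in one and the fall in the other are not independent.

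**Figure D1:**
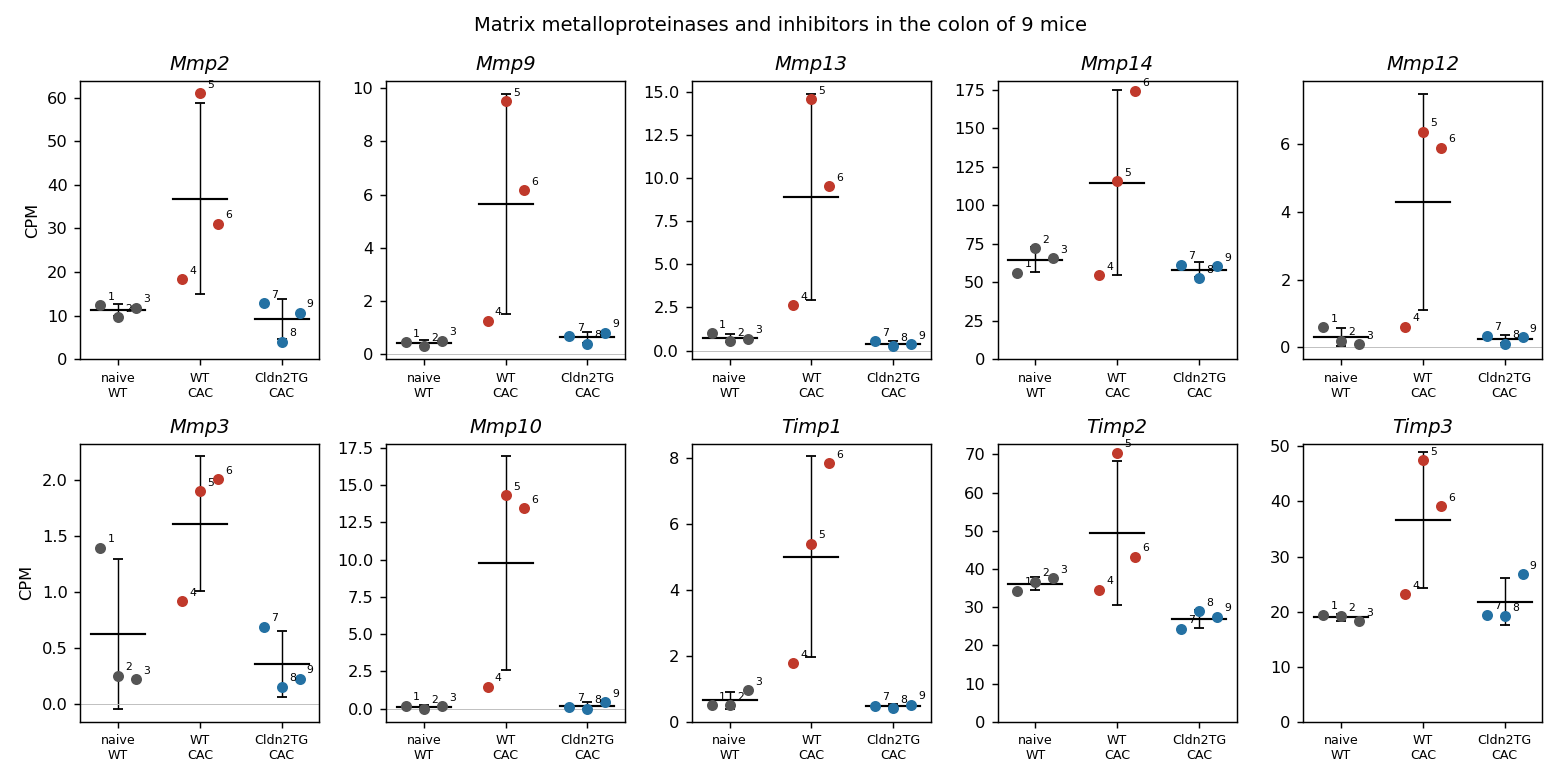
CPM of each member in 9 mice (points, numbered by mouse), with the mean (bar) and SD (whisker) of the 3 mice of naive WT, WT CAC and Cldn2TG CAC. Each panel has its own linear axis. WT CAC mouse 4 is the lowest of its group in all 10 panels, while mice 5 and 6 are above every mouse of the other groups in all of them.

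The gelatinases Mmp2 and Mmp9 digest denatured collagen and the type IV collagen of basement membranes. Mmp9, a product of neutrophils and macrophages in particular, was at 0.448, 0.301 and 0.521 CPM in naive WT mice 1 to 3, at 1.27, 9.51 and 6.16 CPM in WT CAC mice 4 to 6 and at 0.689, 0.405 and 0.813 CPM in Cldn2TG CAC mice 7 to 9. All 3 WT CAC mice were above the other 6, mouse 4 by the least. Mmp9 rose by 3.73 on the log2 scale in WT CAC against naive WT (SE 0.73, adjusted p = 0.0198) and fell by 3.19 in Cldn2TG CAC against WT CAC (SE 0.72, adjusted p = 0.0327). Without mouse 4 these were 4.20 and -3.66, and without mouse 5 they were 3.13 and -2.57, the second no longer called (adjusted p = 0.0835). Over the 12 alternative fits, the adjusted p was 1.41e-06 to 0.0878 for the first and 4.08e-05 to 0.14 for the second, with 9 and 5 fits calling the gene.

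Mmp2, made mostly by fibroblasts, was at 12.4, 9.59 and 11.8 CPM in naive WT, 18.3, 61.0 and 31.1 CPM in WT CAC and 12.8, 4.003 and 10.6 CPM in Cldn2TG CAC mice. The WT CAC mice were again the 3 highest, whereas the naive WT and Cldn2TG CAC mice were intermingled. It rose by 1.73 in WT CAC against naive WT (SE 0.41, adjusted p = 0.0342), a call made in 7 of the 12 alternative fits (adjusted p 7.09e-05 to 0.124). For Cldn2TG CAC against WT CAC its log2 fold change was -2.04 (SE 0.56), which did not pass the test (adjusted p = 0.0746). It passed in 4 of the 12 alternative fits, with DESeq2 (adjusted p = 0.0225), with all 9 mice in the fit (adjusted p = 0.0254), with limma voom (adjusted p = 0.0373) and without mouse 4 (adjusted p = 0.0345), the range being 0.0225 to 0.258.

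Mmp13, the main interstitial collagenase of rodents, and Mmp14, the membrane-type enzyme that activates proMmp2 at the cell surface, also cut fibrillar collagen. Mmp13 was at 0.995, 0.552 and 0.695 CPM in naive WT, at 2.64, 14.5 and 9.51 CPM in WT CAC and at 0.551, 0.253 and 0.369 CPM in Cldn2TG CAC mice. Every WT CAC mouse was above every naive WT mouse, and every naive WT mouse, the lowest of them barely, above every Cldn2TG CAC mouse. It rose by 3.59 in WT CAC against naive WT (SE 0.63, adjusted p = 0.0160) and fell by 4.54 in Cldn2TG CAC against WT CAC (SE 0.69, adjusted p = 0.0108). It was called in 9 of the 12 alternative fits of the first comparison and in 10 of those of the second.

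Mmp14 had the highest CPM of the 10 genes in every mouse. Its values were 56.0, 72.1 and 65.6 CPM in naive WT, 54.3, 115 and 174 CPM in WT CAC and 61.2, 52.5 and 60.3 CPM in Cldn2TG CAC mice. Mice 5 and 6 were above all others, but mouse 4 was within the range of the Cldn2TG CAC mice and below the naive WT mice. The log2 fold change was 0.85 in WT CAC against naive WT (SE 0.38, adjusted p = 0.168) and -1.003 in Cldn2TG CAC against WT CAC (SE 0.37, adjusted p = 0.156), neither of which passed the test. Without mouse 4 it was 1.19 (adjusted p = 0.00474, range over the 12 fits 0.00474 to 0.425) and -1.33 (adjusted p = 0.000991, range 0.000991 to 0.41). Leaving out mouse 6 instead made it smaller, 0.41 and -0.55, and neither passed. With mouse 4 kept, DESeq2 also called the second (adjusted p = 0.0197) but not the first (adjusted p = 0.0565).

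Mmp12, the macrophage metalloelastase, cuts elastin. It was at 0.597, 0.201 and 0.0869 CPM in naive WT, 0.610, 6.37 and 5.89 CPM in WT CAC and 0.344, 0.101 and 0.295 CPM in Cldn2TG CAC mice. Mouse 4 was barely above naive WT mouse 1, and mice 5 and 6 were far above both. Mmp12 rose by 3.88 in WT CAC against naive WT (SE 0.98, adjusted p = 0.0410) and fell by 4.16 in Cldn2TG CAC against WT CAC (SE 0.95, adjusted p = 0.0349). Both calls were lost with limma voom (adjusted p = 0.0535 and 0.066), and 5 of 12 and 5 of 11 alternative fits made them.

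The stromelysins Mmp3 and Mmp10 have broad substrates and activate other proenzymes of the family. Mmp10, found in the epithelium of wounds, was at 0.199, 0 and 0.174 CPM in naive WT, 1.47, 14.3 and 13.5 CPM in WT CAC and 0.138, 0 and 0.443 CPM in Cldn2TG CAC mice. Summed over the 3 mice of a group, this was 8 counts in naive WT, 554 in WT CAC and 8 in Cldn2TG CAC. It rose by 6.22 in WT CAC against naive WT (SE 1.11, adjusted p = 0.0185) and fell by 5.78 in Cldn2TG CAC against WT CAC (SE 1.18, adjusted p = 0.0287), the largest fitted changes among the 10 members in either comparison. Of the 12 alternative fits, 8 made the first call and 6 the second, and both were lost without the filter on low counts (adjusted p = 0.0685 and 0.137). Their size is loosely set, since the low groups hold few counts and the 95% intervals ran from 3.60 to 8.85 and from -8.58 to -2.98.

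Mmp3, made by fibroblasts under interleukin-1, was at 1.39, 0.251 and 0.217 CPM in naive WT, 0.914, 1.90 and 2.01 CPM in WT CAC and 0.689, 0.152 and 0.222 CPM in Cldn2TG CAC mice. Naive WT mouse 1, with 28 counts against 5 and 5 in the other naive WT mice, was above WT CAC mouse 4. The log2 fold change in WT CAC against naive WT was 1.40 (SE 0.70, adjusted p = 0.209) and did not pass, and without naive WT mouse 1 it was 2.77 (adjusted p = 0.0476, range over the 12 fits 0.0476 to 0.457). Leaving out naive WT mouse 3 instead made it 0.96. Mmp3 fell by 2.22 in Cldn2TG CAC against WT CAC (SE 0.58, adjusted p = 0.0479), a call made in 7 of the 12 alternative fits. Mmp3 and Mmp10 are close relatives, and how reads mapping to more than 1 gene were counted was not given in the sources used here.

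Of the inhibitors, Timp1 and Timp3 rose in WT CAC colon and Timp2 did not pass the test. Timp1, the inducible inhibitor that binds proMmp9, was at 0.498, 0.502 and 0.955 CPM in naive WT, 1.78, 5.40 and 7.83 CPM in WT CAC and 0.482, 0.405 and 0.517 CPM in Cldn2TG CAC mice. The 3 WT CAC mice were above all others. Timp1 rose by 2.94 in WT CAC against naive WT (SE 0.58, adjusted p = 0.0199) and fell by 3.42 in Cldn2TG CAC against WT CAC (SE 0.57, adjusted p = 0.0118). The call was made in 8 and 9 of the 12 alternative fits.

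Timp3, which is bound to the matrix and also inhibits ADAM proteases, was at 19.5, 19.2 and 18.2 CPM in naive WT, 23.2, 47.4 and 39.1 CPM in WT CAC and 19.4, 19.2 and 26.7 CPM in Cldn2TG CAC mice. Mouse 4 was below Cldn2TG CAC mouse 9. Timp3 rose by 0.97 in WT CAC against naive WT (SE 0.24, adjusted p = 0.0342), and 7 of the 12 alternative fits made this call (adjusted p 0.00070 to 0.113). In Cldn2TG CAC against WT CAC its log2 fold change was -0.77 (SE 0.26, adjusted p = 0.109), past the threshold in 3 of the 12 alternative fits, with DESeq2 (adjusted p = 0.0372), with all 9 mice in the fit (adjusted p = 0.0484) and without mouse 4 (adjusted p = 0.00369), the range being 0.00369 to 0.303.

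Timp2, the inhibitor that Mmp14 uses as a receptor for proMmp2, was at 34.3, 36.7 and 37.6 CPM in naive WT, 34.5, 70.5 and 43.2 CPM in WT CAC and 24.3, 28.9 and 27.6 CPM in Cldn2TG CAC mice. Here the Cldn2TG CAC mice were the 3 lowest of the 9, below the naive WT mice as well. The log2 fold change was 0.47 in WT CAC against naive WT (SE 0.24, adjusted p = 0.209) and -0.90 in Cldn2TG CAC against WT CAC (SE 0.24, adjusted p = 0.0554). The first was 0.67 without mouse 4 (adjusted p = 0.0318) and 0.14 without mouse 5 (adjusted p = 0.533). The second passed the test in 6 of the 12 alternative fits, with DESeq2 among them (adjusted p = 0.00542, range 0.00437 to 0.172).

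**Figure D2:**
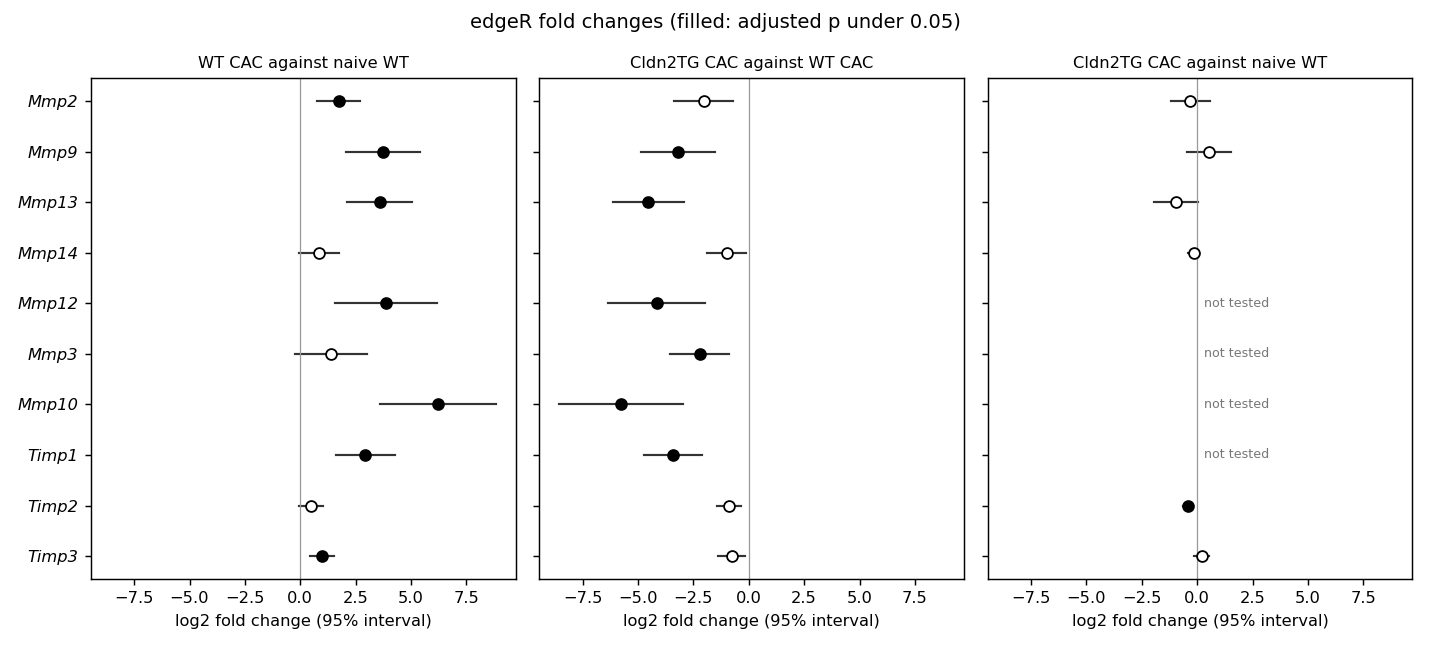
Log2 fold change (x axis) with its 95% interval for each member in the 3 comparisons, edgeR on the 6 mice compared, filled where the adjusted p was under 0.05. Filled points run from 0.97 to 6.22 in the left panel and from -5.78 to -2.22 in the middle one, and Timp2 alone is filled on the right, where Mmp3, Mmp10, Mmp12 and Timp1 were not tested.

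Treated transgenic colon was set beside naive WT colon in a further fit, which shares its mice with the others. Mmp3, Mmp10, Mmp12 and Timp1 did not reach the filter on low counts in these 6 mice, and of the 6 members tested, Timp2 fell and the other 5 did not pass the test. Among 15013 genes tested, 6.07% fell and 3.92% rose. Timp2 fell by 0.42 (SE 0.11, adjusted p = 0.0347, 95% interval -0.66 to -0.18). That call was absent with all 9 mice in the fit (adjusted p = 0.297) and without any 1 of the 6 mice (log2 fold change -0.48 to -0.36), the range over the 12 fits being 0.0146 to 0.297. Of the members, Mmp13 and Timp2 had every Cldn2TG CAC mouse below every naive WT mouse, as had 16.3% of all genes tested. Mmp13 had a log2 fold change of -0.95 with an interval from -1.95 to 0.04 (adjusted p = 0.211). Mmp9 stood at 0.54 with an interval from -0.44 to 1.51, Mmp2 at -0.31 with one from -1.18 to 0.57, Timp3 at 0.20 with one from -0.12 to 0.53 and Mmp14 at -0.15 with one from -0.40 to 0.10. Except for Mmp14 and Timp3, these intervals still allow differences of nearly 1 or more on the log2 scale in 1 direction.

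Levels can be ranked between genes only per kilobase of gene length. In naive WT colon the order of mean CPM per kilobase was Mmp14 (15.0 ± 1.88, SD, n = 3), Timp2 (9.28 ± 0.434), Mmp2 (3.70 ± 0.484), Timp3 (2.33 ± 0.0784) and Timp1 (0.734 ± 0.296), followed by Mmp3, Mmp13, Mmp9, Mmp10 and Mmp12 at 0.345 to 0.0408. The first 5 genes did not overlap with each other over the 3 mice, nor did Mmp13 with Mmp9, but Timp1 overlapped with Mmp3, Mmp3 with Mmp13, Mmp9 with Mmp10 and Mmp10 with Mmp12. In WT CAC colon, Mmp10 (5.67 ± 4.18) came to the fourth place, beside Timp1 (5.63 ± 3.43). The mice spread so widely there that all 9 neighbouring pairs overlapped. In Cldn2TG CAC colon the first 6 places were taken by the same genes and in the same order as in naive WT colon, with Mmp14 at 13.5 ± 1.11, Timp2 at 6.91 ± 0.603 and Mmp2 at 3.01 ± 1.51, and 5 of 9 neighbouring pairs overlapped.

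Summed over the 7 proteases, the level was 18.6, 20.4 and 19.8 CPM per kilobase in naive WT, 21.5, 65.3 and 65.8 in WT CAC and 19.4, 13.8 and 18.3 in Cldn2TG CAC mice. Mouse 4 was hardly above the naive WT mice, and mice 5 and 6 were over 3 times as high. The inhibitors summed to 11.8, 12.3 and 13.0 CPM per kilobase in naive WT, 13.7, 30.0 and 24.7 in WT CAC and 9.17, 10.2 and 10.9 in Cldn2TG CAC mice, the last 3 being the lowest. The ratio of these summed proteases to these summed inhibitors was 1.53 to 1.65 in naive WT, 1.57 to 2.66 in WT CAC and 1.35 to 2.11 in Cldn2TG CAC mice, so the groups overlapped. Mmp7, Mmp15, Timp4 and other family genes are not in the sums, so this is not the ratio of the whole family. Mmp3, Mmp9, Mmp10, Mmp12 and Mmp13 made up 2.25% to 7.92% of the protease sum in naive WT, 13.0% to 28.2% in WT CAC and 2.23% to 4.71% in Cldn2TG CAC mice, without overlap between WT CAC and the others. These are the 5 proteases that fell in Cldn2TG CAC, so the share restates their changes and adds no separate result. In mouse 4 this share (13.0%) was above all mice outside its group even though the sum was not far from theirs.

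**Figure D3:**
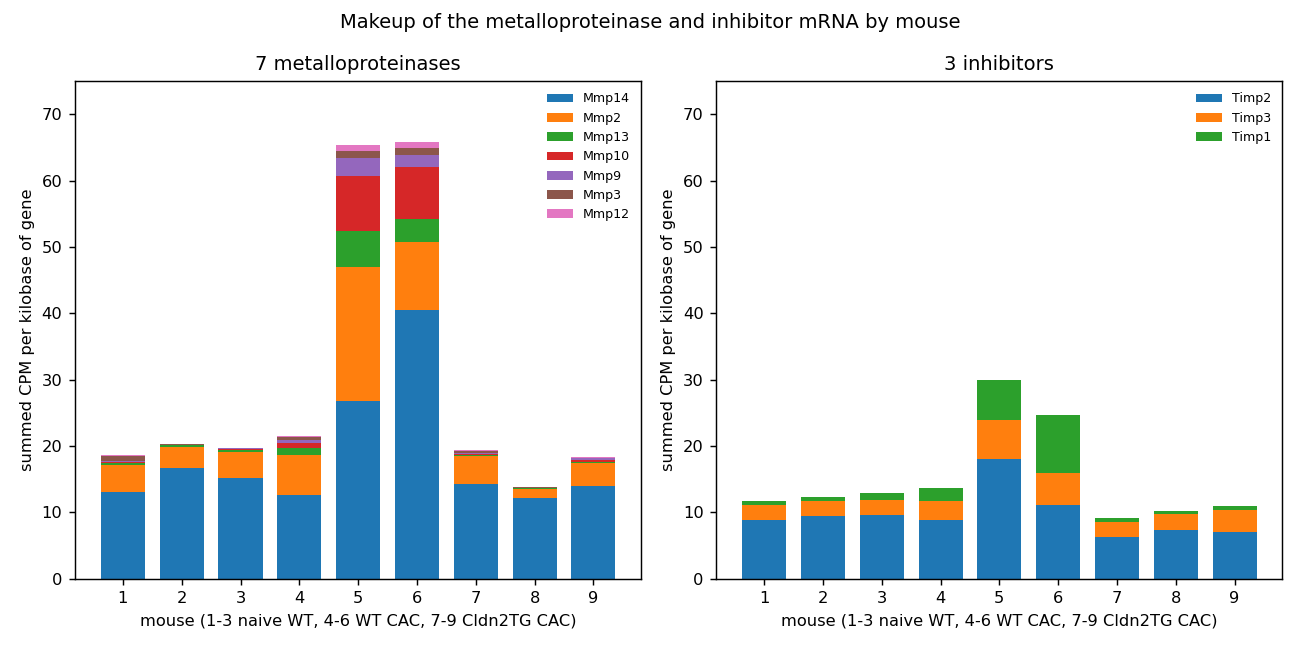
Stacked bars of CPM per kilobase of gene for the 7 metalloproteinases (left) and the 3 inhibitors (right) in each mouse, on the same linear axis. Protease sums are 21.5, 65.3 and 65.8 in WT CAC mice 4 to 6 and 13.8 to 20.4 in the other 6 mice, and Mmp14 is the largest part in every mouse.

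Across the 9 mice, the members' log2 CPM values were correlated with each other at Pearson's r from 0.569 (Mmp3 and Timp2) to 0.979 (Mmp9 and Mmp10), with a median of 0.856 over the pairs. The points are 9 mice in 3 groups and share the step between the groups, so r describes these mice and has no p. By the same measure, each member was set against 13883 other genes with a mean of at least 1 CPM. The likest genes were Il1b for Mmp9 (r = 0.993), Hs3st1 for Mmp10 (r = 0.987), Lgmn for Mmp12 (r = 0.987), Col18a1 for Mmp13 (r = 0.990), Tpbg for Mmp14 (r = 0.995) and Msi1 for Timp1 (r = 0.996). For Mmp2 it was Plau (r = 0.972), the urokinase gene. Mmp3 was likest Themis2 (r = 0.960), Timp2 likest Bicc1 (r = 0.972), with Lox and Nid1 next (r = 0.967 and 0.963), and Timp3 likest Trim15 (r = 0.986). Trim15 was also the third for Mmp9 (r = 0.985), after Map4k4 (r = 0.986).

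The other genes of the family were read from a list. Of 17 other metalloproteinases and inhibitors, 8 could be tested, and 1 of them rose and 1 fell in WT CAC against naive WT. Mmp28, the epithelial enzyme epilysin, rose by 1.40 (SE 0.29, adjusted p = 0.0231), and Mmp17, a membrane-anchored enzyme, fell by 1.08 (SE 0.30, adjusted p = 0.0462). Between the treated groups, 2 of 8 fell in Cldn2TG CAC, Mmp11 by 2.49 (SE 0.56, adjusted p = 0.0284) and Mmp28 by 1.72 (SE 0.32, adjusted p = 0.0156), and none rose. There 7.35% of all genes tested fell. Mmp17 fell by 1.75 in Cldn2TG CAC against naive WT (SE 0.25, adjusted p = 0.00391). Those of highest mean CPM, not divided by gene length, were Mmp15, a membrane-type enzyme with group means of 193 to 237 CPM, and Timp4, with 11.1 to 15.2 CPM. On chromosome 9, Mmp1a and Mmp1b, which lie between the members, had 0 counts in all 9 mice, and Mmp1b shares 1261 bases with the end of Mmp12. Beyond Mmp10, the neutrophil collagenase Mmp8 had 1, 6 and 0 counts summed over the naive WT, WT CAC and Cldn2TG CAC mice, Mmp27 had 1, 3 and 1 and Mmp20 had 0, 17 and 0.

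Mmp7 (matrilysin), an epithelial enzyme that also lies on chromosome 9 beyond Mmp10, was not in the list and was added after its values were seen. It was at 0.199, 0.251 and 0.478 CPM in naive WT, 16.9, 59.7 and 327 CPM in WT CAC and 1.17, 6.08 and 0.739 CPM in Cldn2TG CAC mice. The 3 groups did not overlap, with mouse 6 far above all others. Mmp7 rose by 8.74 in WT CAC against naive WT (SE 1.49, adjusted p = 0.0183, range over the 12 alternative fits 2.69e-11 to 0.0774). In Cldn2TG CAC its log2 fold change was -5.58 against WT CAC (SE 1.39, adjusted p = 0.0592) and 3.11 against naive WT (SE 0.90, adjusted p = 0.0779), and neither passed the test. DESeq2 called both (adjusted p = 0.000387 and 0.000717).

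Proteases that act beside the family were read from lists of related genes. Of 14 ADAM and ADAMTS proteases, 12 were tested in WT CAC against naive WT and 2 rose, Adam12 by 4.26 (SE 0.73, adjusted p = 0.0145) and Adam8, a leukocyte enzyme, by 3.94 (SE 0.65, adjusted p = 0.0138). Adam12, with 11, 198 and 5 counts summed over the naive WT, WT CAC and Cldn2TG CAC mice, passed the filter on low counts only through the WT CAC mice, so its calls add little to these counts. Against WT CAC, 3 of 11 fell in Cldn2TG CAC colon, Adam12 with a log2 fold change of -4.94 (SE 0.80, adjusted p = 0.0115), Adam8 with -3.09 (SE 0.59, adjusted p = 0.0190) and Adam19, named here after its values were seen, with -1.43 (adjusted p = 0.0439). Over all genes tested, 8.04% rose in the first and 7.35% fell in the second comparison. The median of the ADAM and ADAMTS list was 0.49 in the first and -0.37 in the second. Its genes of highest mean CPM, Adam10 and Adam15, did not pass the test in either comparison.

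Plasmin, formed from plasminogen by its activators, and furin-like convertases open several proenzymes of the family. Of 10 genes tested for these steps, 5 rose in WT CAC against naive WT, with a median of 1.41. Plat, tissue plasminogen activator, rose by 3.47 (SE 0.64, adjusted p = 0.0208), from 3.06 to 4.98 CPM in naive WT to 11.9 to 70.1 CPM in WT CAC mice, and Plaur, the urokinase receptor, by 2.68 (SE 0.45, adjusted p = 0.0157). Tfpi2, an inhibitor of plasmin named here after its values were seen, went the other way and fell by 2.25 (adjusted p = 0.00763). Against WT CAC, 3 of 10 fell in Cldn2TG CAC colon, Plat with a log2 fold change of -3.17 (SE 0.70, adjusted p = 0.0390), the convertase Pcsk6 with -1.88 (SE 0.24, adjusted p = 0.00680) and Serpine2, while Tfpi2 rose by 1.82 (adjusted p = 0.0118). F3 rose by 1.496 in WT CAC (adjusted p = 0.0102) and by 0.72 in Cldn2TG CAC colon (adjusted p = 0.0165), each against naive WT. In treated transgenic against naive WT colon, Pcsk5 fell by 2.74 (adjusted p = 0.0391) and Serpine2 fell by 1.40 (adjusted p = 0.00995). Furin and F3 had the highest mean CPM of the list, Furin with group means of 94.95 to 119.6 CPM and F3, tissue factor, with 39.3 to 109 CPM. Beside these counts, 8.04% of all genes tested rose in WT CAC against naive WT and 7.35% fell in Cldn2TG CAC against WT CAC.

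Among 18 matrix substrates, 5 rose and Eln fell in WT CAC against naive WT, and the median was 0.81. Spp1, osteopontin, rose by 5.21 (SE 1.23, adjusted p = 0.0364) but was at only 0.559 CPM in 1 WT CAC mouse. With 16, 508 and 11 counts per group, it was tested only through the WT CAC mice as well, so its call adds little to the count. Against WT CAC, 10 of 17 fell in Cldn2TG CAC colon and none rose, with a median of -1.53. Col4a1 fell by 2.19 (SE 0.33, adjusted p = 0.0118) and Col4a2 by 1.93 (SE 0.30, adjusted p = 0.0116), both chains of basement membrane collagen. Against naive WT, 10 of 17 were lower in Cldn2TG CAC colon too, Eln with a log2 fold change of -1.85 (SE 0.23, adjusted p = 0.00222) and Col4a1 with -1.73 (SE 0.18, adjusted p = 0.00118). Lamb3 and Col3a1 had the highest mean CPM of this list, 206 to 362 CPM and 97.0 to 320.1 CPM by group. Over all genes tested, 8.04% rose and 6.92% fell in WT CAC against naive WT. In Cldn2TG CAC, 7.35% fell against WT CAC and 6.07% against naive WT.

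Matrix cross-linking enzymes and cathepsins, the lysosomal proteases, had 1 of 11 genes risen in WT CAC against naive WT, the osteoclast and fibroblast cathepsin Ctsk by 2.21 (SE 0.43, adjusted p = 0.0189). Against WT CAC, 5 of 10 fell in Cldn2TG CAC colon, Tgm2 with a log2 fold change of -2.42 (SE 0.57, adjusted p = 0.0473), Ctsk with -1.92 (SE 0.49, adjusted p = 0.0446) and Lox, Loxl2 and Loxl3. Against naive WT, 3 of 10 fell, Loxl2 with -1.13 (adjusted p = 0.0291), Loxl1 with -0.88 (adjusted p = 0.0218) and Tgm2. Genes of these lists named without a value were added after their values were seen. Ctsb and Ctss, with the highest mean CPM of the cross-linker and cathepsin list (group means of 695 to 713 CPM and 469 to 594 CPM), did not pass the test in any comparison. AP-1 subunits and cytokines listed as regulators of the family had 1 of 10 genes risen in WT CAC against naive WT, Il1b by 4.10 (SE 0.84, adjusted p = 0.0249). In Cldn2TG CAC against WT CAC, 2 of 10 fell, Il1b with a log2 fold change of -4.002 (SE 0.86, adjusted p = 0.0322) and Tgfb1 with -0.76 (SE 0.17, adjusted p = 0.0273). The AP-1 subunit Jun fell by 0.93 in Cldn2TG CAC against naive WT (SE 0.16, adjusted p = 0.00881). Jund and Fos, with the highest mean CPM of the list, did not pass the test in any comparison. Over all genes tested, 8.04% rose in WT CAC against naive WT, and 1 of 11 and 1 of 10 are near that share. In Cldn2TG CAC, 7.35% fell against WT CAC and 6.07% against naive WT.

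**Figure D4:**
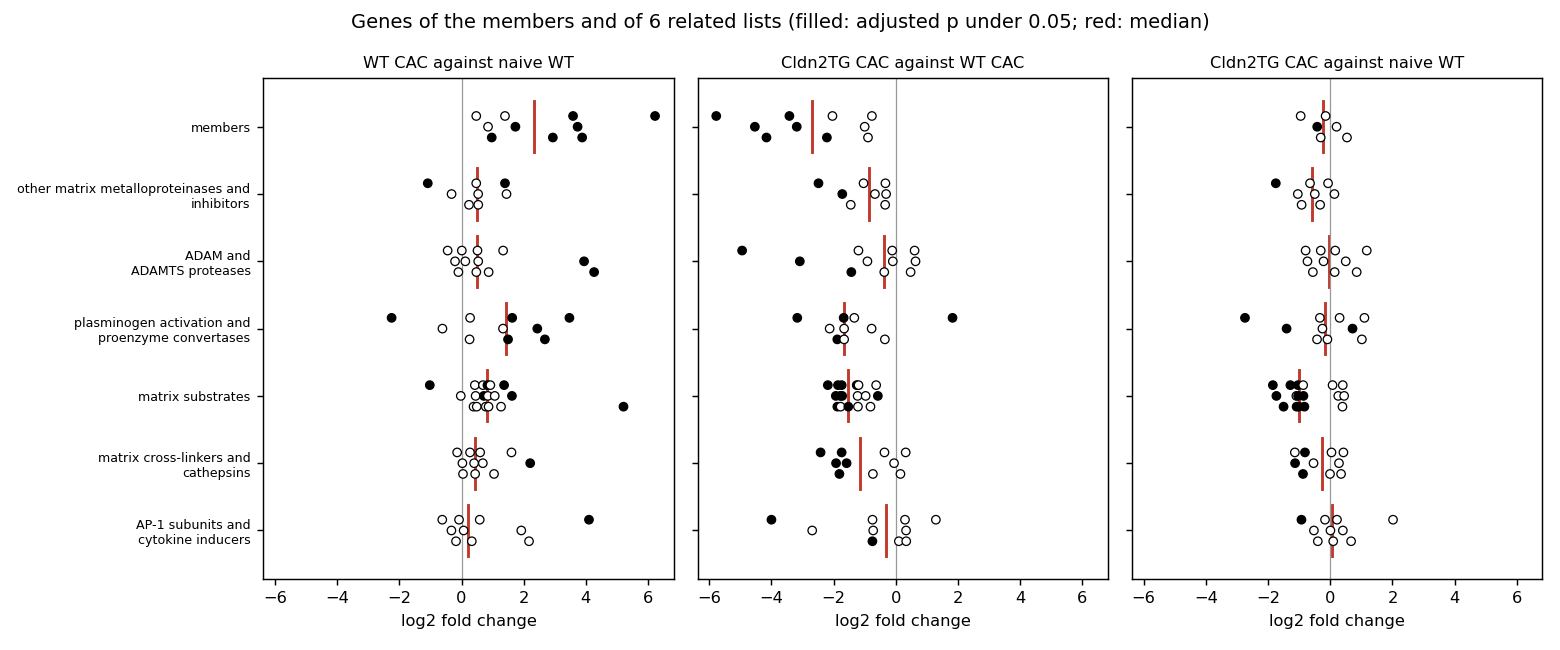
Log2 fold change (x axis) of each tested gene of the members and of 6 related lists in the 3 comparisons, filled where the adjusted p was under 0.05, with the median of each list in red. The median of the members is 2.33 in the left panel and -2.70 in the middle one, but 1.35 and -1.52 without the 4 that passed the filter only through the WT CAC mice, while the plasminogen list is at 1.41 and -1.66.

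Summed macrophage, T cell and squamous epithelium markers moved with the members, and the other marker lists did so in part or not at all. The summed level of 10 macrophage markers was 53.1 to 64.7 CPM in naive WT, 86.4 to 206 CPM in WT CAC and 32.6 to 57.8 CPM in Cldn2TG CAC mice, mouse 4 being the lowest of the WT CAC mice here too. Of the 9 tested, 6 were higher in WT CAC than in naive WT, and 7 were lower in Cldn2TG CAC than in WT CAC. The shares over all genes tested were 8.04% and 7.35%. The 8 T cell markers summed to 6.23 to 11.99 CPM, 21.5 to 36.04 CPM and 7.40 to 11.5 CPM in the same order of groups, with 7 of 8 higher and then 6 of 8 lower. The neutrophil sum of 138 to 378 CPM was 86.4% to 99.9% Ly6g, which was at 137 to 207 CPM in naive WT, 298 to 327 CPM in WT CAC and 302 to 350 CPM in Cldn2TG CAC mice. Without Ly6g, the other 9 neutrophil markers summed to 0.151 to 0.956 CPM in naive WT, 2.13 to 51.4 CPM in WT CAC and 0.295 to 0.557 CPM in Cldn2TG CAC mice, and Ngp was at 0 in all 9 mice. Of the neutrophil markers, 4 of 4 tested were higher in WT CAC than in naive WT, 2 of 3 were lower in Cldn2TG CAC than in WT CAC, and Ly6g was higher in Cldn2TG CAC than in naive WT. Ly6g was the only 1 tested without the WT CAC mice, in which the others were high, so the calls of the others add little.

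Fibroblast markers summed to 131 to 182 CPM in naive WT, 141 to 265 CPM in WT CAC and 83.1 to 104 CPM in Cldn2TG CAC mice, with 1 of 10 higher in WT CAC than in naive WT and 3 of 10 lower in Cldn2TG CAC than in either WT group. Endothelial markers were at 41.2 to 54.3 CPM, 44.0 to 61.3 CPM and 24.5 to 28.3 CPM, lower in Cldn2TG CAC for 4 of 8 against WT CAC and 5 of 8 against naive WT. Squamous epithelium markers summed to 3.14 to 3.77 CPM in naive WT, 23.2 to 74.1 CPM in WT CAC and 5.54 to 6.82 CPM in Cldn2TG CAC mice, 4 of 5 tested being higher in WT CAC than in naive WT and 2 of 5 lower in Cldn2TG CAC than in WT CAC, and Sprr3 was at 0 in all 9 mice. Of these markers, 3 were tested without the WT CAC mice, so the calls of the others add little to the counts. Smooth muscle markers ran from 2022 to 4086 CPM in naive WT, from 1068 to 2961 CPM in WT CAC, with mouse 4 at the top, and from 974 to 1505 CPM in Cldn2TG CAC mice, with 3 of 8 lower in Cldn2TG CAC than in naive WT by edgeR and 8 of 8 called by DESeq2. In WT CAC against naive WT, edgeR called 0 of the 8 smooth muscle markers, 2 had an unadjusted p under 0.05 and DESeq2 called 2, and in Cldn2TG CAC against WT CAC all 3 of these counts were 0. The sum of the colon epithelium markers overlapped between all groups, with 2 of 10 higher in Cldn2TG CAC than in naive WT. Over all genes tested, 8.04% were higher in WT CAC than in naive WT, and 7.35% were lower in Cldn2TG CAC than in WT CAC. Against naive WT, 6.07% were lower and 3.92% higher in Cldn2TG CAC. The part of the listed cell types in the values of the members was not tested.

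**Figure D5:**
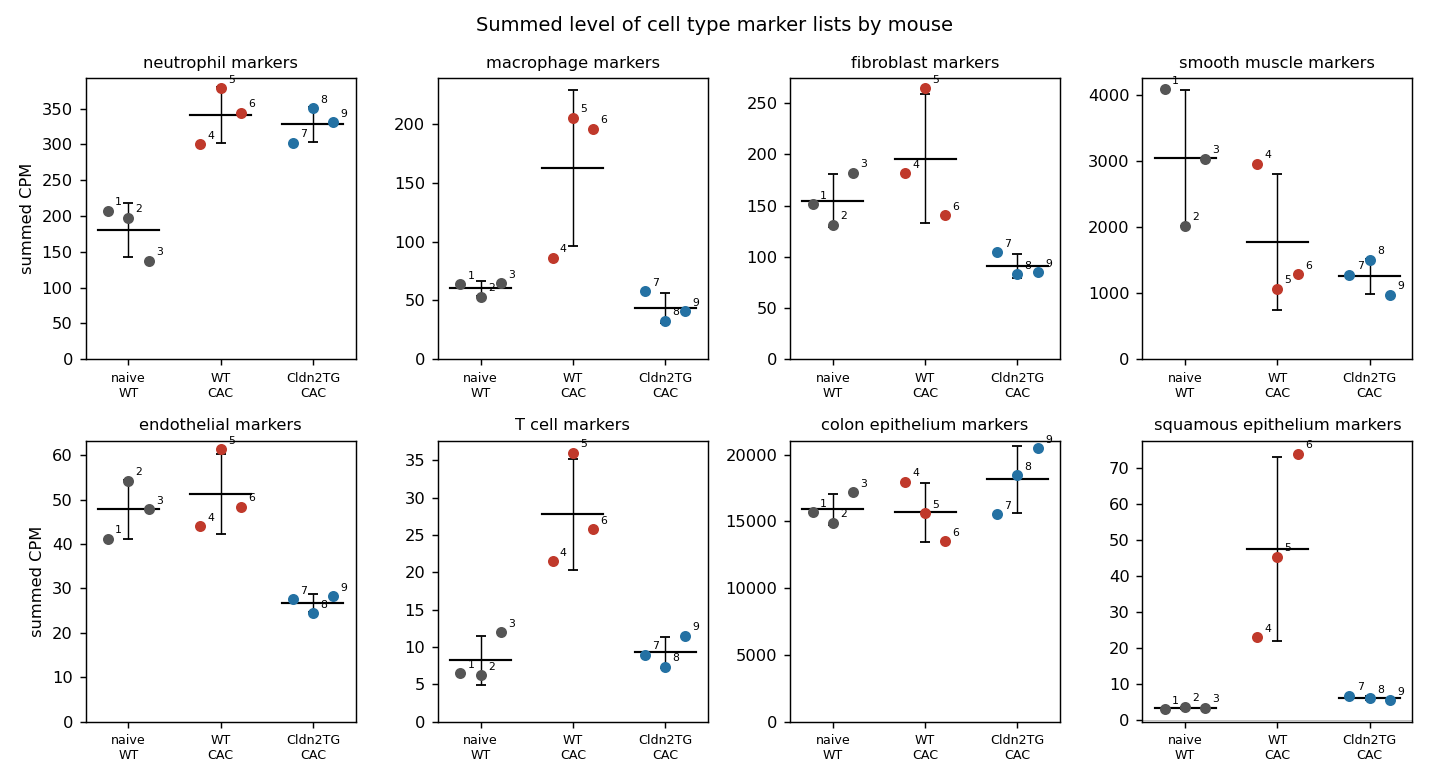
Summed CPM of 8 marker lists in 9 mice (points, numbered by mouse), with the mean (bar) and SD (whisker) of each group on linear axes. Macrophage, T cell and squamous sums are highest in the WT CAC mice, fibroblast and endothelial sums are lowest in the Cldn2TG CAC mice, and the neutrophil sum is nearly all Ly6g.

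The number of members past the threshold depended on single mice. In WT CAC against naive WT it was 9 without WT CAC mouse 4, 4 without mouse 5 and 4 without mouse 6, and 1, 0 and 0 without naive WT mouse 1, 2 or 3. In Cldn2TG CAC against WT CAC it was 10 without mouse 4, 2 without mouse 5, 2 without mouse 6, and 2, 0 and 0 without Cldn2TG CAC mouse 7, 8 or 9. The genes called among all tested moved likewise, from 135 to 4080 in the first and from 58 to 2894 in the second comparison. Without the filter on low counts, 4 of the 10 members were called in each. No member changed its direction under any of these in the 2 comparisons with WT CAC. The exact permutation test on a single member, 3 mice against 3, cannot go below 0.1, the value it gave for the members without overlap.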

How the data were processed

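Colon RNA of 9 mice was sequenced on a NovaSeq6000. The authors deposited whole-number counts per gene, without normalization, for each library and lane. The study's methods name TopHat2 for mapping, the submitters' processing notes HISAT2, and both featureCounts of Subread, on GRCm38. Versions, strand setting and treatment of reads with several matches were not given in the sources used here. Samples were grouped by their genotype and treatment labels. The labels do not tell whether samples of a group are separate animals beyond their numbers, and p-values measure the spread between these samples. The 2 lanes of a library differed little beyond sampling noise (chi-square per degree of freedom 0.995 to 1.06) and were added up. Between mice of a group it was 16.8 to 66.3.

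The tests were those of edgeR 4.0.16 (R 4.3.3), fitted to the 6 mice of each pair of groups (filterByExpr with a minimum count of 10 and minimum total of 15, TMM, robust quasi-likelihood F-test, two-sided, Benjamini-Hochberg over all genes tested). SE was derived from the test statistic. The 95% intervals come from the same fit. CPM per kilobase uses the deposited gene length. Correlations use log2 CPM with a prior count of 2. Symbols came from GENCODE M21, in which 47224 of 47729 identifiers had one, and promoter windows from RefSeq. The fits were tested on simulated data, in which DESeq2 called more of the unchanged genes than edgeR did in each comparison, and limma voom called fewer than edgeR in those with WT CAC. In each comparison, edgeR's false calls were above the nominal share. Alternatives were DESeq2 1.42.0, limma 3.58.1 voom with group weights, library size only, upper-quartile factors, no filter, all 9 mice in 1 fit, an absolute log2 fold change of at least 1 and leaving out each mouse. Members and gene lists were chosen with earlier results of these data known. Named beside the members were the 2 genes of highest mean CPM in each list, the 2 called genes of largest change per comparison, the 3 genes of highest r and the neighbouring Mmp genes. A few genes of these lists are counted but not reported here by name. Figures were drawn with matplotlib 3.10.9, and tables made with pandas 2.3.3.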

Additional observations from a re-analysis of the deposited data

How the results depend on the processing

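Of the counts of members called, that for WT CAC against naive WT (7) was 4 without the filter on low counts and 0 to 9 when each mouse was left out. The count for Cldn2TG CAC against WT CAC (6) was 10 with DESeq2 and 0 to 10 when each mouse was left out. The count for Cldn2TG CAC against naive WT (1) was 0 with all 9 mice in the fit, 0 with an absolute log2 fold change of at least 1, and 0 in every fit with a mouse left out. The cause was not tested, except that fewer samples were fitted or, without the filter, more genes (26501 and 26185) were tested.

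Over all genes, WT CAC against naive WT (2310 called) gave 1289 with an absolute log2 fold change of at least 1 and 135 to 4080 with a mouse left out. Cldn2TG CAC against WT CAC (1421) gave 2136 with all 9 mice and 58 to 2894 with a mouse left out. Cldn2TG CAC against naive WT (1501) gave 2567 without the filter, 445 with all 9 mice, 683 with an absolute log2 fold change of at least 1 and 525 to 1383 with a mouse left out. By library size only, the median of all genes in this comparison moved from 0.00 to -0.11, and the split of 589 higher and 912 lower became 276 and 1310. Relative to that shift, Timp2, at -0.53 by library size only, was lower by about its value in the TMM fit (-0.42).

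No paired analysis was possible because the groups share no replicate numbers. Of the members' fold changes, 1 changed sign, Mmp2 in Cldn2TG CAC against naive WT (-0.31), which ran from -0.65 to 0.063 with a mouse left out and was never called. Members near 0.15 CPM rest on a few counts per mouse, which limits their fold changes. Of the fits of the other genes named or under the naming rule, none changed sign. With another tool, scaling, filter or set of mice, 18 lost the call, 5 gained it and 205 stayed on their side of the threshold. With a mouse left out, 101 lost it, 1 gained it and 126 stayed.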
